A study of Mus musculus with 12 samples.

Results

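The 10 genes described here are linked to the leading cells of growing retinal vessels. They were followed in the retinas of mice with oxygen-induced retinopathy (OIR). They are Apln, Aplnr, Esm1, Angpt2, Dll4, Pdgfb, Plvap, Adm, Cxcr4 and Mcam. Several of them, such as Cxcr4, Mcam and Plvap, are carried by other cells too. These 10 genes were taken by symbol from the 35976 genes of the count table, and each of the 10 had reads in at least 1 library. In the OIR libraries Apln, the gene of the peptide apelin, was higher in both genotypes, and so was Adm, the gene of adrenomedullin. The Adm call in Casp1 KO rested on few reads and was lost in 5 of 6 fits that left out 1 library. Mcam passed the test in the libraries labelled WT, a call lost in 3 of 6 such fits and with a second tool, DESeq2. The other 7 genes did not pass the test in either genotype.

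A vessel sprout is led by a tip cell, an endothelial cell that sends out filopodia toward hypoxic tissue and is followed by dividing stalk cells. Tip cells respond to vascular endothelial growth factor, and Notch signalling through the ligand Dll4 limits how many endothelial cells take that role. In OIR, high oxygen stops and prunes the young retinal vessels, and the avascular retina becomes relatively hypoxic in room air, where new vessel tufts form.

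From whole retina 12 libraries were made, 3 in each of 4 groups, with a kit that reads the 3' ends of messenger RNA. The groups were C57BL/6 mice kept in normoxia, C57BL/6 mice after OIR, Caspase1 knockout mice kept in normoxia and Caspase1 knockout mice after OIR, with retinas taken 3 days after the return to room air. For the C57BL/6 mice the study's methods give 75% oxygen from postnatal day 7 to day 12 and collection at day 15, for the normoxic pups too. Oxygen level and age of the knockout mice, the knockout allele, and the number of retinas or animals behind a library are not given in the sources used here, so p-values measure the spread between libraries, which may be technical.

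Depth was 3391203 to 5657873 counts in 11 libraries and 22815830 counts in replicate 2 of WT normoxia, and levels are given in CPM, for which the reads of a gene were divided by the TMM-adjusted library total. The floor of 3 counts corresponded to 0.134 to 0.871 CPM. Casp1, the targeted gene, had 7 reads in the 6 libraries labelled WT and 126 reads in the 6 labelled Casp1 KO, which goes against the labels. Whether these 3' end reads lie in the deleted part is not given in the sources used here, so the reads do not settle the genotype, and the genotypes are named below as labelled. Of the genes that mark rods, the main cell type of the retina, Sag lay between 6114 and 9081 CPM and Nrl between 1729 and 2574 CPM over the 12 libraries. The 24 endothelial markers summed to 203 to 319 CPM.

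The promoters of the 2 genes that rose under both labels are shown here because hypoxia is the condition under study. Each is the 250 bases before the RefSeq start site on GRCm38.p6, written 5' to 3' on the strand of the gene, with capitals marking the core of a hypoxia response element on either strand. The Apln sequence lies at chrX:48034854-48035103 on the minus strand and that of Adm at chr7:110627407-110627656 on the plus strand.
Apln: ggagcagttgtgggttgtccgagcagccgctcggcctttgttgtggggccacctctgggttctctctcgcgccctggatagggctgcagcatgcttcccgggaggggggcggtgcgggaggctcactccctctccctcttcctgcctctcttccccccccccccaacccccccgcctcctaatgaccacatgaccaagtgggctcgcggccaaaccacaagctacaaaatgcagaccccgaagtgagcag
Adm: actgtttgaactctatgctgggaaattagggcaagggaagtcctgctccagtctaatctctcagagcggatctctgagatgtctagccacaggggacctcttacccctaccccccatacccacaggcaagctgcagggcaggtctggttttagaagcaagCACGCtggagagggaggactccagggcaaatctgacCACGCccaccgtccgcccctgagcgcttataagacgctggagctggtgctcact

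The letters searched as that core were ACGTG or GCGTG on either strand. Of the 10 genes 6 had an entry among the 32851 RefSeq promoters, and 4 of the 6 held a match, namely Cxcr4, Dll4, Adm and Esm1, while 38.6% of all promoters held one in the same window. Adm held the match at 90 and at 54 bases before its start site, Apln and Mcam held none, and Aplnr, Angpt2, Pdgfb and Plvap had no entry. A second motif, the core TGGGAA bound by the Notch partner RBPJ, was found in Adm alone of the 6, at 232 bases before the start, and in 21.6% of all promoters. These matches describe letters in a window and are not measured binding sites.

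Among the secreted ligands, Apln changed most clearly. The gene lies at chrX:48025146-48034853 on the minus strand (GRCm38, GENCODE) and has 3 exons in its longest transcript, and it encodes the peptide that acts on the receptor Aplnr. In WT-labelled libraries Apln stood at 4.44, 1.29 and 5.44 CPM in normoxia and at 33.8, 40.9 and 19.3 CPM in OIR. In Casp1 KO-labelled libraries it stood at 6.20, 2.90 and 3.62 CPM in normoxia and at 26.01, 20.4 and 28.2 CPM in OIR. Every OIR library was above every normoxia library under both labels, and the lowest of all 6 OIR libraries was replicate 3 of WT OIR. The group means were 3.72 ± 2.16 CPM against 31.3 ± 11.02 CPM in WT and 4.24 ± 1.73 CPM against 24.9 ± 4.03 CPM in Casp1 KO (SD, n = 3 each). The log2 fold change of Apln was 3.26 ± 0.32 in WT (SE, edgeR quasi-likelihood test, adjusted p = 8.05e-21) and 2.51 ± 0.32 in Casp1 KO (adjusted p = 2.24e-12). By p, Apln ranked 6 of 22853 genes tested in WT and 57 of 22387 in Casp1 KO. In whole retina, more cells that express a gene and more RNA per cell cannot be told apart, and this holds for each value below.

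Adm encodes adrenomedullin, a vasoactive peptide that signals through the receptor Calcrl with a Ramp protein and is a known hypoxia-responsive gene. It lies at chr7:110627661-110629820, plus strand, and its longest transcript has 4 exons. The 3 WT normoxia libraries had 0 reads, although they held 33065134 counts together, and the 3 WT OIR libraries had 32, 38 and 8 reads, or 7.84, 6.996 and 1.45 CPM. In Casp1 KO-labelled libraries Adm had 3, 1 and 3 reads in normoxia and 22, 9 and 26 reads in OIR. The groups did not overlap under either label. Set against the floor of 3 counts per library, which averaged 0.440 CPM in WT normoxia, the mean of the WT OIR libraries was at least 12.4-fold higher. That bound has no test of its own. The edgeR quasi-likelihood test of the WT counts gave an adjusted p = 1.34e-07. In Casp1 KO the pooled reads gave a ratio of 7.64 with a 95% interval of 3.48 to 19.9 that covers counting error only, and the log2 fold change was 2.89 ± 0.90 (SE, adjusted p = 0.0317).

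The Casp1 KO call for Adm rested on few reads. It was lost without replicate 1, 2 or 3 of Casp1 KO normoxia (adjusted p = 0.0837, 0.0886 and 0.0578) and without replicate 1 or 3 of Casp1 KO OIR (adjusted p = 0.145 and 0.226), and it stayed without replicate 2 of Casp1 KO OIR (adjusted p = 0.0204). In WT the call was made without each library in turn.

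Angpt2, a ligand of the receptor Tek that loosens the contact of endothelium and pericytes, lies at chr8:18690263-18741562 on the minus strand. Its level was 3.91, 3.12 and 3.70 CPM in WT normoxia and 8.82, 10.1 and 3.27 CPM in WT OIR, so that 2 OIR libraries were high and replicate 3 sat among the normoxia values. Under the Casp1 KO label it was 5.47, 5.23 and 5.31 CPM in normoxia and 11.1, 9.20 and 5.35 CPM in OIR, again with 2 libraries high and 1 at the level of normoxia. The log2 fold changes of 1.05 ± 0.50 in WT (SE, adjusted p = 0.343) and 0.69 ± 0.43 in Casp1 KO (adjusted p = 0.502) did not pass the test.

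Pdgfb, which recruits pericytes to the sprout, lies at chr15:79995874-80014977 on the minus strand. It stood at 4.26, 1.69 and 4.57 CPM in WT normoxia and at 5.14, 7.73 and 1.64 CPM in WT OIR, and at 3.83, 4.65 and 2.66 CPM in Casp1 KO normoxia and 8.89, 3.28 and 3.09 CPM in Casp1 KO OIR. Both pairs of groups overlapped, with log2 fold changes of 0.50 ± 0.59 (SE, adjusted p = 0.731) and 0.47 ± 0.55 (adjusted p = 0.725).

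Dll4, the Notch ligand of tip cells, lies at chr2:119325784-119335962 on the plus strand and was close to the limit of detection. Its reads were 0, 31 and 2 in WT normoxia and 5, 4 and 0 in WT OIR. Under the Casp1 KO label they were 1, 3 and 7 in normoxia and 6, 2 and 2 in OIR. The 31 reads came from the library with 22815830 counts, where they made 1.38 CPM. No difference in Dll4 was detected, with log2 fold changes of -0.02 ± 1.38 in WT and -0.30 ± 1.56 in Casp1 KO (SE, adjusted p = 0.997 and 0.951). With so few reads a difference could be missed. Exons of Dll4 share bases with those of Gm14207 on the opposite strand, and exons of Mcam with those of Gm10687. The strand setting of the counting is not given in the sources used here, so reads of each pair may not be told apart.

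**Figure D1:**
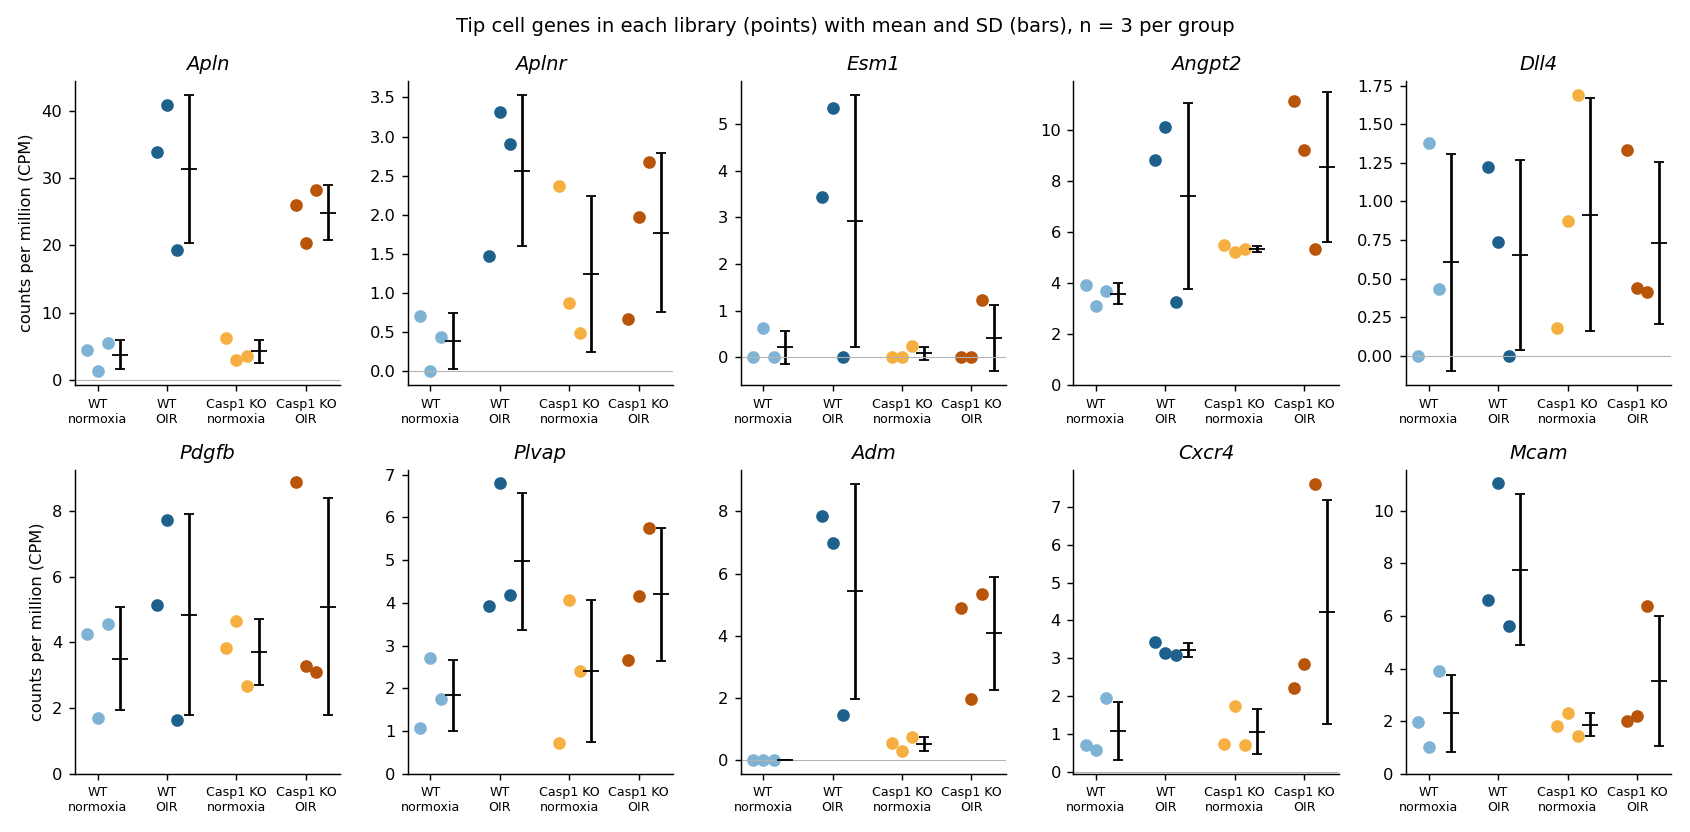
Level of each of the 10 tip cell genes in CPM in the 12 libraries, with 1 panel a gene and its own scale, points for libraries, and bars for the mean and SD of 3 libraries. Genotypes are as labelled. All 6 OIR points lie above the normoxia points of the same label for Apln (19.3 CPM or more against 6.20 CPM or less) and for Adm, while Pdgfb and Dll4 overlap.

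Of the receptors, Aplnr, the receptor of apelin, is a gene of 1 exon at chr2:85136225-85139923 on the plus strand. It had 4, 0 and 2 reads in WT normoxia and 6, 18 and 16 reads in WT OIR, or 1.47, 3.31 and 2.91 CPM. In Casp1 KO it had 13, 3 and 2 reads in normoxia and 3, 9 and 13 reads in OIR. The WT groups did not overlap and the Casp1 KO groups did. The log2 fold change was 2.91 ± 1.26 in WT (SE, adjusted p = 0.247) and 0.49 ± 1.01 in Casp1 KO (adjusted p = 0.856), so neither passed the test.

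Cxcr4, the receptor of the chemokine Cxcl12, is carried by tip cells and by many leukocytes and lies at chr1:128588199-128592293 on the minus strand. In WT-labelled libraries it stood at 0.710, 0.579 and 1.96 CPM in normoxia and at 3.43, 3.13 and 3.09 CPM in OIR. In Casp1 KO-labelled libraries it stood at 0.729, 1.74 and 0.724 CPM in normoxia and at 2.22, 2.85 and 7.61 CPM in OIR. All 3 OIR libraries were above the 3 normoxia libraries under both labels. The test was not passed in WT (log2 fold change 1.63 ± 0.91, adjusted p = 0.463) or in Casp1 KO (2.02 ± 0.78, adjusted p = 0.139). With both labels in 1 fit the log2 fold change was 1.82 ± 0.60 (SE, adjusted p = 0.0511), and it passed with DESeq2 (adjusted p = 0.0112). In this joint fit it also passed without replicate 3 of WT normoxia, replicate 2 of Casp1 KO normoxia or replicate 1 of Casp1 KO OIR (adjusted p = 0.0268, 0.0429 and 0.0383).

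The summed level of 12 microglia and macrophage markers moved the same way as Cxcr4. It was 101 to 110 CPM in WT normoxia and 145 to 162 CPM in WT OIR, and 92.3 to 102 CPM in Casp1 KO normoxia and 156 to 172 CPM in Casp1 KO OIR. All 12 markers had reads in each group, and 4 of the 12 rose in the joint fit, C1qa by 1.35 ± 0.22, C1qb by 1.26 ± 0.27 and C1qc by 1.39 ± 0.31 on the log2 scale (SE, adjusted p = 6.06e-08, 0.000136 and 0.000475). Over all genes tested, 2.32% rose in the joint fit. The part of microglia and macrophages in the Cxcr4 values was not tested.

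Among the surface and secreted markers, Mcam, an adhesion molecule of endothelium and pericytes also called CD146, lies at chr9:44134469-44142727 on the plus strand. It stood at 1.95, 1.02 and 3.91 CPM in WT normoxia and at 6.61, 11.05 and 5.63 CPM in WT OIR, with no overlap. Under the Casp1 KO label it stood at 1.82, 2.32 and 1.45 CPM in normoxia and at 2.001, 2.19 and 6.38 CPM in OIR, where only replicate 3 lay above all normoxia values. Mcam rose in WT (log2 fold change 1.85 ± 0.55, SE, adjusted p = 0.0262), and its value in Casp1 KO was 0.93 ± 0.73 (adjusted p = 0.598). The WT call was lost without replicate 1 or 2 of WT normoxia (adjusted p = 0.102 and 0.214), without replicate 2 of WT OIR (adjusted p = 0.379), with DESeq2 (adjusted p = 0.0524), with the stricter low-count filter filterByExpr (adjusted p = 0.0834) and with 1 fit to all 12 libraries (adjusted p = 0.0592).

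Esm1 encodes endocan, a secreted proteoglycan used as a tip cell marker, and lies at chr13:113209659-113218098 on the plus strand. It had 0, 14 and 0 reads in WT normoxia and 14, 29 and 0 reads in WT OIR, or 3.43, 5.34 and 0 CPM. In Casp1 KO-labelled libraries 1 read was found in 1 normoxia library and 6 reads in 1 OIR library, and the other 4 libraries had none. Most Esm1 reads thus came from 2 WT OIR libraries, and the groups overlapped. Its log2 fold change in WT was 3.28 ± 1.16 (SE, adjusted p = 0.0951). It passed the test without replicate 2 of WT normoxia or without replicate 3 of WT OIR (adjusted p = 0.0132 and 0.0124). Without 1 library the fitted value ran from 2.66 to 6.89, the highest without replicate 2 of WT normoxia, which leaves 0 reads in WT normoxia, so that this value depends on the prior count.

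Plvap, which forms the diaphragms of fenestrae and caveolae and is low in vessels with a mature blood-retina barrier, lies at chr8:71497765-71511752 on the minus strand. It stood at 1.07, 2.71 and 1.74 CPM in WT normoxia and at 3.92, 6.81 and 4.18 CPM in WT OIR, without overlap. In Casp1 KO it stood at 0.729, 4.07 and 2.41 CPM in normoxia and at 2.67, 4.16 and 5.76 CPM in OIR, with overlap. The test was not passed in WT (log2 fold change 1.36 ± 0.65, adjusted p = 0.337) or in Casp1 KO (0.86 ± 0.66, adjusted p = 0.589).

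Plvap is also carried by the choroidal capillaries that adjoin the retinal pigment epithelium. The 10 markers of that epithelium summed to 981 to 999.8 CPM in WT normoxia and 1076 to 1244 CPM in WT OIR, and to 1086 to 1127 CPM in Casp1 KO normoxia and 1674 to 1799 CPM in Casp1 KO OIR. All 10 had reads in each group, and 5 of the 10 rose in Casp1 KO, where 2.61% of all genes tested rose. The 8 lens markers summed to 393 to 451 CPM in WT normoxia, 228 to 499 CPM in WT OIR, 365 to 385 CPM in Casp1 KO normoxia and 630 to 713 CPM in Casp1 KO OIR, with Mip at 0 in the WT-labelled groups. The part of these tissues in the values of Plvap or any other of the 10 genes was not tested.

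Counted together, 3 of the 10 genes rose in WT (Apln, Adm and Mcam) and none fell, where 1.58% of all genes tested rose and 2.29% fell. In Casp1 KO 2 of the 10 rose (Apln and Adm) and none fell, where 2.61% of all genes rose and 2.03% fell. With both labels in 1 fit 3 of the 10 rose, again Apln, Adm and Mcam, where 2.32% rose and 2.57% fell. Mcam was then at 1.42 ± 0.46 (log2 fold change, SE, adjusted p = 0.0424), and that call was lost without replicate 1 or 2 of WT normoxia, replicate 1 or 2 of WT OIR, replicate 3 of Casp1 KO normoxia or replicate 3 of Casp1 KO OIR (adjusted p = 0.112, 0.164, 0.0622, 0.234, 0.061 and 0.216), and with filterByExpr (adjusted p = 0.0589).

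The median log2 fold change of the 10 genes was 1.74 in WT, 0.89 in Casp1 KO and 1.51 in the joint fit, against 0.04, 0.00 and 0.02 over all genes tested. With Adm set at its bound the WT median was the same. Fitted values were above 0 for 9 of the 10 genes under each label, the exception being Dll4. All 3 OIR libraries were above all 3 normoxia libraries for 6 of the 10 in WT, namely Apln, Aplnr, Plvap, Adm, Cxcr4 and Mcam, where 8.53% of all genes tested were so placed. The same held for 3 of the 10 in Casp1 KO, namely Apln, Adm and Cxcr4, against 8.56% of all genes. Replicate 3 of WT OIR was the OIR library nearest to normoxia for several of these genes. Without it and the deep replicate 2 of WT normoxia, a pair chosen after seeing the data, 3 of the 10 rose in WT. Esm1 (adjusted p = 0.000278) then stood in the place of Mcam (adjusted p = 0.0566). For Esm1 this choice left 0 and 0 reads in WT normoxia against 14 and 29 in WT OIR. Its call there follows from the choice and adds no support.

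**Figure D2:**
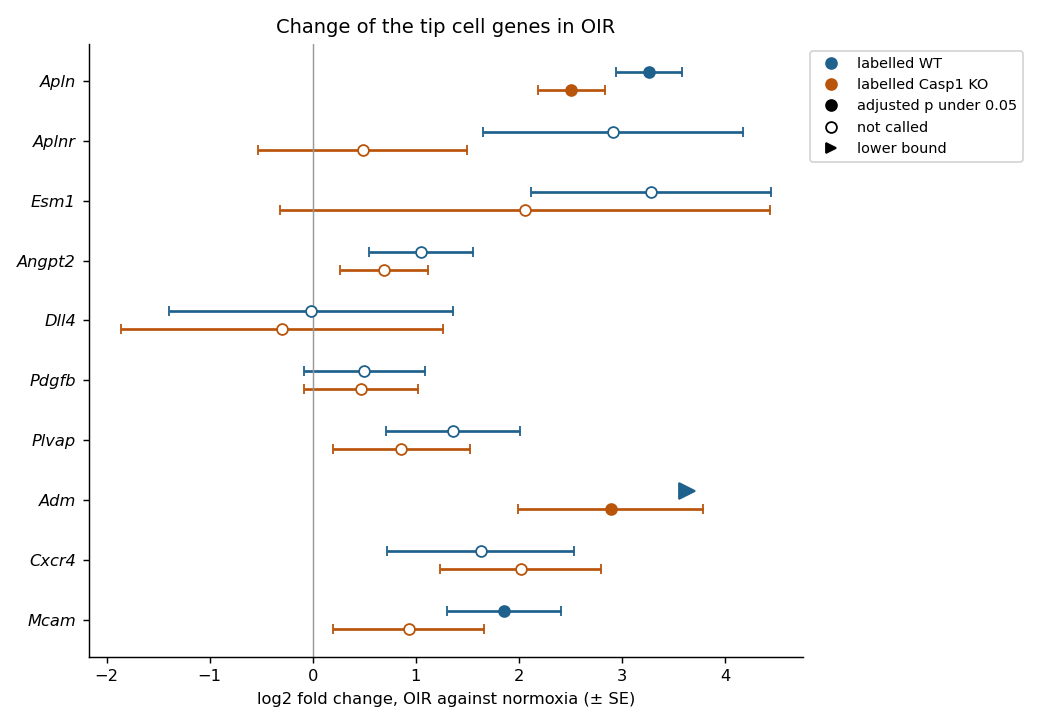
Log2 fold change between OIR and normoxia of the 10 genes with its SE, separately for libraries labelled WT and Casp1 KO, where filled symbols passed the test at an adjusted p under 0.05. The triangle for Adm in WT is a lower bound, since all 3 WT normoxia libraries were at 0. Apln stands at 3.26 and 2.51, and Dll4 and Pdgfb lie within about an SE of 0.

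Whether the change in OIR differed between the genotype labels was asked with the interaction term over all 12 libraries. None of the 10 genes passed that edgeR test at an adjusted p under 0.05, where 1.13% of all genes did. DESeq2 called none of the 10 either. The 1 gene with an unadjusted p under 0.05 was Adm (adjusted p = 0.0838), ranked 372 by p among 24484 genes tested. Its WT normoxia libraries are at 0 and no size is given. Its interaction passed without replicate 3 of WT OIR (adjusted p = 0.0246). The interaction of Apln was -0.78 ± 0.46 on the log2 scale (Casp1 KO minus WT, SE, adjusted p = 0.604) and that of Mcam -0.92 ± 0.90 (adjusted p = 0.878). Without 1 library the Apln value ran from -1.17 (without replicate 3 of WT normoxia) to -0.16 (without replicate 2 of WT normoxia), and it was -0.51 without replicate 2 of WT OIR and -0.37 without replicate 1 of Casp1 KO normoxia, with no call in any of the 12 fits. Mcam passed in WT and not in Casp1 KO, and its change is therefore not shown to differ between them.

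In normoxia none of the 10 genes differed between Casp1 KO and WT by edgeR or DESeq2. By edgeR 1.04% of all genes were called there at an adjusted p under 0.05. Even at an unadjusted p under 0.05 there were 0 of the 10. Apln differed there by 0.28 ± 0.60 on the log2 scale (SE, adjusted p = 0.907). In OIR none of the 10 differed by either tool, where edgeR called 0.575% of all genes at an adjusted p under 0.05. At an unadjusted p under 0.05 there were 2 of the 10, ranked 746 and 1109 by p among 22774 genes tested. These were Esm1 (log2 fold change Casp1 KO against WT -2.72 ± 1.07, SE, adjusted p = 0.341) and Mcam (-1.13 ± 0.49, adjusted p = 0.44). Esm1 passed without replicate 3 of WT OIR (adjusted p = 0.0264), the WT OIR library with 0 Esm1 reads. Apln differed in OIR by -0.33 ± 0.23 (SE, adjusted p = 0.713).

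The 10 genes were next set against the summed reads of endothelial markers in each library. The summed level of 24 endothelial markers was 203 to 239 CPM in WT normoxia, 211 to 319 CPM in WT OIR, 230.4 to 238 CPM in Casp1 KO normoxia and 240.4 to 262 CPM in Casp1 KO OIR. On the log2 scale OIR was above normoxia by 0.20 on average over the labels (exact permutation test within genotype, two-sided p = 0.07). Podxl, which podocytes and other cells carry too, gave 37.5% of the summed reads on average and 25.8% to 51.6% over the libraries. Sox18 was at 0 in 3 of the 4 groups.

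Ratios to this endothelial sum were tested by exact permutations that kept libraries within their genotype label. Of the 10 genes, 5 were higher in OIR at an unadjusted p under 0.05. Only the 10 genes were put to this test, so the share of all genes that would pass it is not known. With 400 ways to assign the libraries the smallest two-sided p was 0.005, and 10 genes were tested. Apln relative to the endothelial sum was higher by 2.701 on the log2 scale, 2.95 in WT and 2.46 in Casp1 KO (exact p = 0.005). Adm reached the same exact p = 0.005, with all 6 OIR libraries above the normoxia libraries of their label. Cxcr4 was higher by 1.56 (exact p = 0.01), Mcam by 1.09 (exact p = 0.04) and Plvap by 1.03 (exact p = 0.035).

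The ratios of the remaining genes did not pass. They were 1.85 for Aplnr (exact p = 0.055), 0.55 for Angpt2 (exact p = 0.06), 1.45 for Esm1 (exact p = 0.235), 0.12 for Pdgfb (exact p = 0.785) and -0.15 for Dll4 (exact p = 0.845). Aplnr passed without replicate 1 of WT normoxia, replicate 1 of Casp1 KO normoxia or replicate 1 of Casp1 KO OIR (exact p = 0.045, 0.02 and 0.02), and Angpt2 without replicate 3 of WT OIR or replicate 3 of Casp1 KO OIR (exact p = 0.02 and 0.015). Without 1 library the ratio of Aplnr ran from 1.04 to 2.30 and that of Esm1 from 0.83 to 2.30, and both rest in part on libraries with 0 reads, which the added 0.5 places. With Pecam1, Cdh5 and Cldn5 alone as the denominator, Apln, Adm and Cxcr4 passed (exact permutation p = 0.005, 0.005 and 0.04), while Plvap and Mcam did not (exact p = 0.215 and 0.145). Plvap passed without 4 of the 12 libraries in turn and was lost without the other 8, namely replicate 1 of WT normoxia, each WT OIR library, replicates 1 and 3 of Casp1 KO normoxia and replicates 2 and 3 of Casp1 KO OIR, with exact p between 0.01 and 0.11 over the 12. Mcam was lost without 6 of the 12, namely each WT OIR library, replicates 1 and 3 of Casp1 KO normoxia and replicate 3 of Casp1 KO OIR, with exact p between 0.02 and 0.1.

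**Figure D3:**
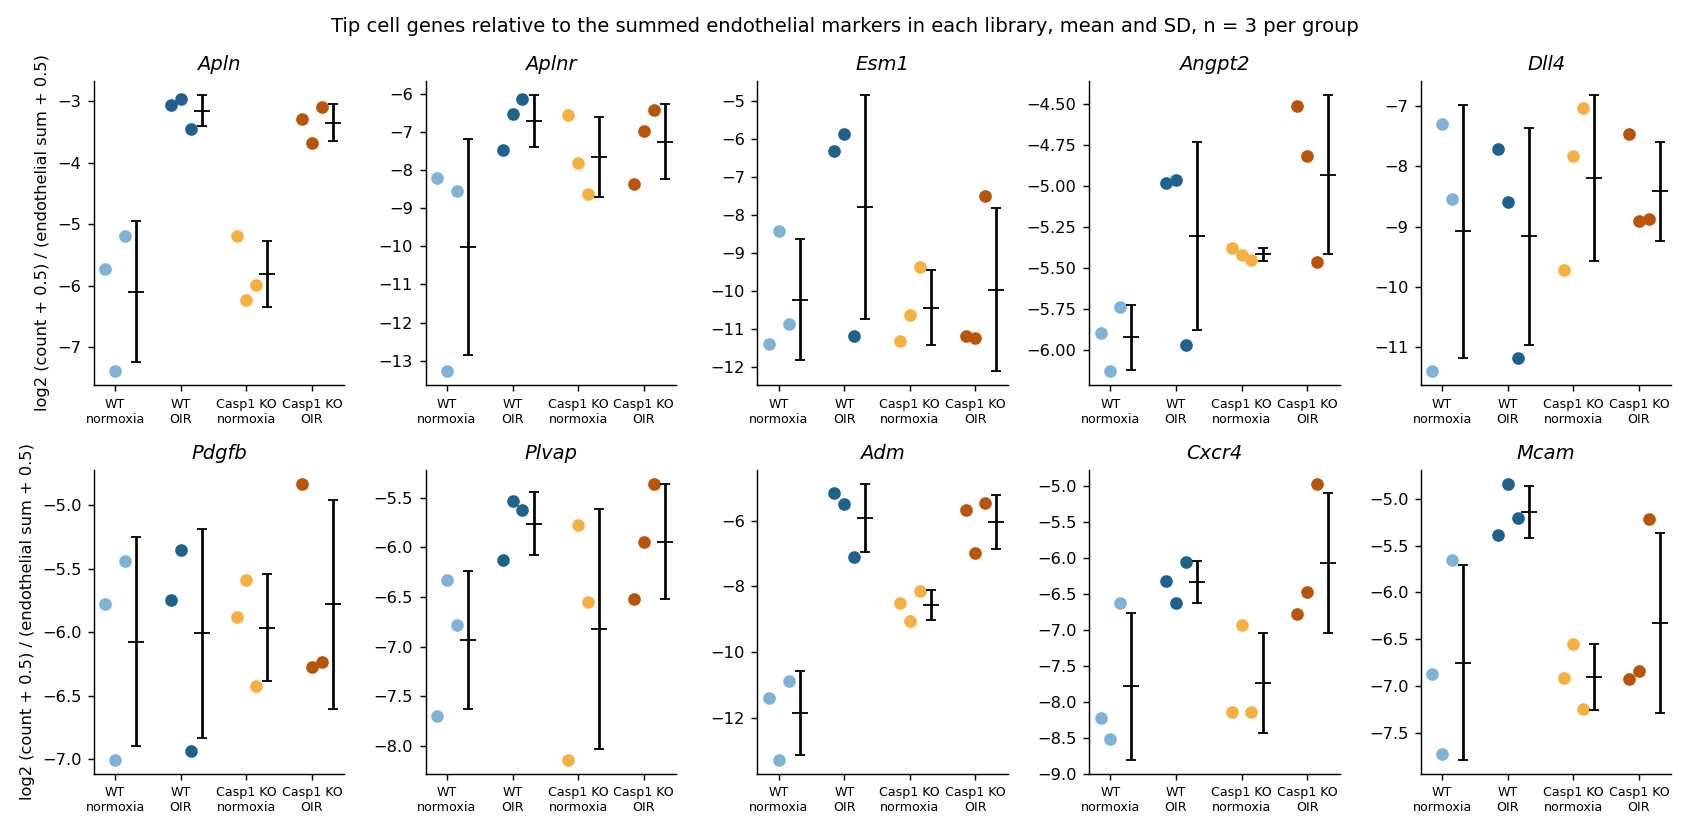
Log2 ratio of each of the 10 genes to the summed reads of 24 endothelial markers, with 0.5 added to each, in the 12 libraries, and the mean and SD of 3 libraries. Ratios of different genes are not on one scale. Apln and Adm are higher in all 6 OIR libraries than in the normoxia libraries of the same label, and points with 0 reads, such as Adm in WT normoxia, are placed by the 0.5 alone.

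The signalling partners of the 10 genes were a list of 24 receptors, co-receptors, ligands and effectors. Adm2 had no reads in any library and 23 were tested. In WT 1 of the 23 rose and none fell, where 1.58% of all genes rose and 2.29% fell. In Casp1 KO 1 rose and none fell, where 2.61% of all genes rose and 2.03% fell. In the joint fit 2 rose and 1 fell, where 2.32% of all genes rose and 2.57% fell. The median log2 fold change of the list in the joint fit was 0.21. Ackr3, the scavenging receptor of Cxcl12 and adrenomedullin, rose by 1.46 ± 0.43 in the joint fit (log2, SE, adjusted p = 0.0192), a call lost without replicate 2 of WT OIR, replicate 2 of Casp1 KO normoxia or replicate 3 of Casp1 KO OIR (adjusted p = 0.104, 0.0519 and 0.0588). Ramp1, a partner of Calcrl that turns it toward the peptide CGRP, fell by 2.57 ± 0.66 in the joint fit (adjusted p = 0.0036). Its level was 2.31 to 4.62 CPM in WT normoxia against 0.182 to 1.71 CPM in WT OIR, and 2.90 to 4.74 CPM in Casp1 KO normoxia against 0 to 0.823 CPM in Casp1 KO OIR.

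Lama4, a laminin chain of vessel basement membrane, rose in WT (log2 fold change 1.33 ± 0.36, SE, adjusted p = 0.00995) and in the joint fit (1.04 ± 0.27, adjusted p = 0.00525). Its level in WT OIR was 17.6, 22.3 and 4.91 CPM, with the lowest in replicate 3, within the 3.91 to 7.46 CPM of WT normoxia. The WT call was lost without replicate 3 of WT normoxia or replicate 1 or 2 of WT OIR (adjusted p = 0.095, 0.0898 and 0.428), with DESeq2 (adjusted p = 0.0961) and with filterByExpr (adjusted p = 0.103), and the joint call without replicate 2 of WT OIR (adjusted p = 0.123). Notch1, the receptor on which Dll4 acts, rose in Casp1 KO by 1.02 ± 0.27 (log2, SE, adjusted p = 0.00534), lost without replicate 1 of Casp1 KO normoxia or replicate 1 of Casp1 KO OIR (adjusted p = 0.159 and 0.136), and its WT value was -0.17 ± 0.28 (adjusted p = 0.829). Exons of Notch1 share bases with those of 0610009E02Rik and Gm13568 on the opposite strand, so its reads may not be told apart from theirs.

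Of 25 other genes linked to tip cells, 3 rose in WT, 2 in Casp1 KO and 5 in the joint fit, and none fell. The shares of all genes tested that rose in these fits were 1.58%, 2.61% and 2.32%. The joint fit gave Col4a1, a basement membrane collagen, 1.16 ± 0.14 (log2 fold change, SE, adjusted p = 4.88e-14), Cd34, a surface sialomucin of endothelium, 1.49 ± 0.27 (adjusted p = 4.64e-06) and Aqp1, a water channel, 0.50 ± 0.10 (adjusted p = 3.16e-05). Col4a1 was at 1.71 ± 0.19 in WT and 0.57 ± 0.19 in Casp1 KO (adjusted p = 3.08e-16 and 0.0573), and its interaction passed (-1.16 ± 0.26, adjusted p = 0.00273). The other 2 were Col4a2 and Igfbp3, named because the count is small. The list's median was 0.36 in the joint fit.

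Of the 24 endothelial markers, 2 rose and 2 fell in the joint fit, with a median of 0.33 (0.30 with Sox18 at its bound). Over all genes tested, 2.32% rose and 2.57% fell in that fit. Pecam1 rose by 0.88 ± 0.22 (log2, SE, adjusted p = 0.00324), a call lost without replicate 3 of WT normoxia or replicate 1 of WT OIR (adjusted p = 0.123 and 0.0709) and with DESeq2 or filterByExpr (adjusted p = 0.0947 and 0.0839). Vwf rose by 2.83 ± 0.72 (adjusted p = 0.0036), which was lost without replicate 2 of WT OIR (adjusted p = 0.252), and Ly6c1 fell by 2.71 ± 0.52 (adjusted p = 1.27e-05). Ptprb was the other that fell. Among 13 mural cell markers 12 were tested, and 3 rose in the joint fit, Acta2 by 2.69 ± 0.27, Ndufa4l2 by 3.12 ± 0.42 and Myh11 by 2.06 ± 0.57 (log2, SE, adjusted p = 8.63e-20, 2.78e-11 and 0.0104). Myh11 was lost without replicate 1 of WT OIR (adjusted p = 0.167). Tagln had no reads.

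Of 25 genes of the hypoxia response, 3 rose and 1 fell in WT, 12 rose and none fell in Casp1 KO, and 12 rose and none fell in the joint fit. Over all genes tested, 1.58% rose and 2.29% fell in WT. The shares were 2.61% and 2.03% in Casp1 KO, and 2.32% and 2.57% in the joint fit. Vegfa, the growth factor to which tip cells respond, rose by 0.90 ± 0.10 in the joint fit (log2, SE, adjusted p = 4.74e-16), the oxygen-sensing hydroxylase gene Egln3 by 2.29 ± 0.39 (adjusted p = 4.25e-07) and the glucose transporter gene Slc2a1 by 0.49 ± 0.09 (adjusted p = 1.07e-05). The change of Slc2a1 differed between the labels (interaction 0.76 ± 0.17, adjusted p = 0.00259): in WT its libraries overlapped at 131 to 168 CPM in normoxia and 129 to 183 CPM in OIR (log2 fold change 0.10 ± 0.14, adjusted p = 0.766), while in Casp1 KO it rose by 0.89 ± 0.10 (adjusted p = 3.88e-16).

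Of the cell type lists, 2 of 8 lens, 4 of 10 pigment epithelium and 2 of 8 Muller glia markers rose in the joint fit, and 0, 0 and 2 of them fell. Over all genes tested, 2.32% rose and 2.57% fell in that fit. In WT 1.58% rose and 2.29% fell, in Casp1 KO 2.61% rose and 2.03% fell, and 1.13% were called in the interaction. Of the Muller glia markers 0 rose and 3 fell in WT, 5 rose and 1 fell in Casp1 KO, and 4 of 8 were called in the interaction. The labels already differed in normoxia, where 5 of these 8 markers were lower in Casp1 KO than in WT and 0 were higher. In OIR 1 of the 8 was higher in Casp1 KO and 0 were lower. Over all genes tested, 1.04% were called between the labels in normoxia and 0.575% in OIR. Of the lens markers 0 of 7 tested were called in WT, 5 of 8 rose in Casp1 KO, and 4 of 8 were called in the interaction. Of the pigment epithelium markers 2 rose and 1 fell in WT, 5 rose in Casp1 KO, and 2 of 10 were called in the interaction. The named genes were Cryba1 and Cryaa of the lens (0.42 ± 0.10 and 0.38 ± 0.09), Dct, Pmel and Rpe65 of the pigment epithelium (0.60 ± 0.08, 0.71 ± 0.13 and 0.52 ± 0.10), Nrl and Sag of rods (0.31 ± 0.07 and -0.21 ± 0.06), and Apoe, Slc1a3 and Abca8a of Muller glia (0.52 ± 0.08, 0.37 ± 0.09 and -0.48 ± 0.13, log2 fold changes with SE). Each of these 10 markers had an adjusted p under 0.05 in the joint fit. Cryba1 and Cryaa rose in Casp1 KO (1.07 ± 0.10 and 0.81 ± 0.09) and stood at -0.24 ± 0.15 and -0.05 ± 0.14 in WT (adjusted p = 0.52 and 0.902), with interactions of 1.28 ± 0.18 and 0.84 ± 0.17 (adjusted p = 2.46e-09 and 0.000217). Rpe65 and Apoe also passed in Casp1 KO (0.97 ± 0.11 and 0.92 ± 0.07) and not in WT (0.08 ± 0.15 and 0.12 ± 0.12), with called interactions (adjusted p = 0.0007 and 1.2e-05). The joint calls of Cryaa, Cryba1, Sag and Abca8a were lost with DESeq2 (adjusted p = 0.328, 0.381, 0.093 and 0.111) and with filterByExpr (adjusted p = 0.116, 0.152, 0.058 and 0.0809). Cryba1 was lost without replicate 1 or 2 of Casp1 KO normoxia (adjusted p = 0.0523 and 0.0656), Sag without replicate 2 of WT normoxia, replicate 3 of Casp1 KO normoxia or replicate 3 of Casp1 KO OIR (adjusted p = 0.121, 0.0524 and 0.0877), and Abca8a without replicate 2 of WT normoxia, replicate 3 of WT OIR, replicate 1 of Casp1 KO normoxia or replicate 3 of Casp1 KO OIR (adjusted p = 0.0736, 0.132, 0.0932 and 0.0729).

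**Figure D4:**
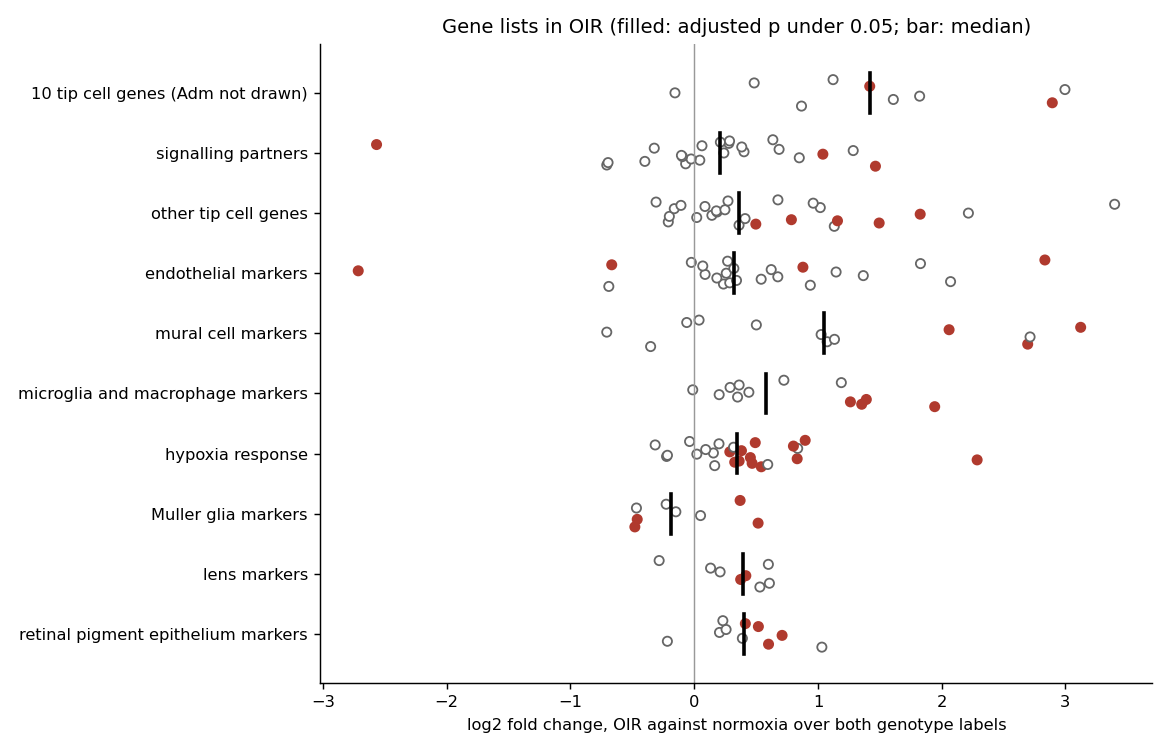
Log2 fold change between OIR and normoxia over both genotype labels for the 10 tip cell genes and the lists set beside them, with 1 point a gene, filled where the adjusted p was under 0.05, and a black bar at the median of the points drawn. Adm and genes without reads in all libraries of a condition are not drawn. Esm1 (3.00), which did not pass, and Apln (2.89) stand at the right of their row, and Ramp1 (-2.57) and Ly6c1 (-2.71) stand apart on the left of theirs.

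The genes whose profile lay nearest to that of Apln over the 12 libraries were taken by the smallest root mean square difference of centred log2 CPM, among 14746 genes with enough reads. They were Cebpd, a transcription factor gene, at 0.622, H2-Ab1, an antigen-presenting chain, at 0.642, Acta2, the smooth muscle actin gene, at 0.663, S100a6, a calcium-binding protein gene, at 0.664, and the complement gene C4b at 0.68. Reads of C4b may be shared with its near copy C4a, and Cebpd shares exon bases with Spidr on the opposite strand, so both levels are uncertain. In the joint fit they rose by 2.27 ± 0.20, 2.33 ± 0.44, 2.69 ± 0.27, 2.26 ± 0.14 and 2.55 ± 0.51 in that order (log2, SE). S100a6 stood at 16.3 to 16.5 CPM in WT normoxia and 62.3 to 70.9 CPM in WT OIR.

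Of the other 9 tip cell genes, Adm was nearest to Apln, at rank 8 with a difference of 0.7, followed by Cxcr4 at rank 38, Aplnr at 85 and Mcam at 89. Angpt2 ranked 300, Plvap 514, Pdgfb 1215 and Esm1 6337, and Dll4 had too few reads to be ranked. To be ranked, a gene needed at least 10 counts in at least 3 libraries. Adm met this through OIR libraries alone, and Cxcr4 and Aplnr mostly through them. Their nearness to Apln therefore follows in part from that filter. All 12 libraries share the same normalisation, and the ranks are a description.

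**Figure D5:**
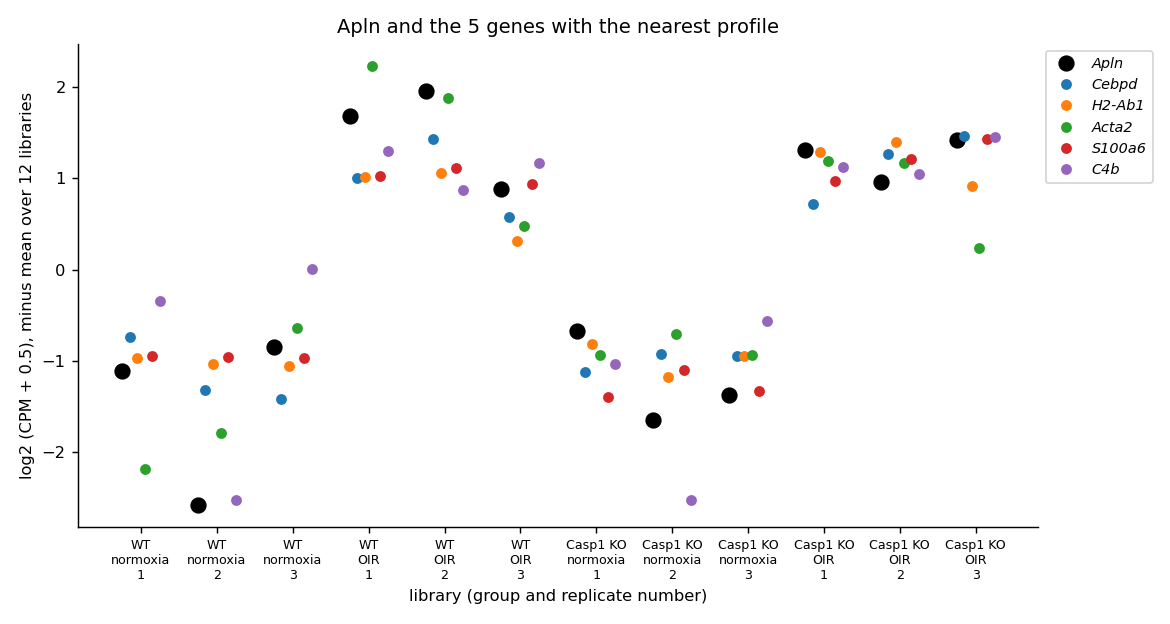
Level of Apln and of the 5 genes nearest to it in each of the 12 libraries, as log2 (CPM + 0.5) minus the mean over the libraries of that gene. The 5 genes were chosen for this likeness to Apln. All 6 genes lie above their own mean in the 6 OIR libraries. In normoxia they lie at or below it, with C4b of WT normoxia replicate 3 about at its mean.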

How the data were processed

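Retinal RNA was sequenced from 3' end libraries (Lexogen QuantSeq FWD). Per the labels and the submitters' processing notes, the authors aligned reads to mm10 with STAR 2.7.5a and tabulated raw counts per gene symbol with HTSeq 0.6.1, and the deposited table holds these counts. Groups were taken from sample titles. The table's annotation is not given in the sources used here.

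Every gene counted at least 1 time among the fitted libraries was tested with edgeR 4.0.16 (R 4.3.3, TMM, quasi-likelihood, prior count 0.125) and Benjamini-Hochberg adjustment over all of them, at an adjusted p of 0.05. SE is the log2 fold change divided by the root of F. The joint and interaction fits used all 12 libraries, the joint one with genotype as covariate. CPM used TMM over 12 libraries. Ratios were tested with exact permutations that went through every assignment (Python 3.11.15, numpy 2.4.6). Simulated counts with 200 changed genes served as a test, these genes being drawn from those with a mean of at least 10 counts. Of genes changed by a log2 of 1 or 2, 50% and 80% were called in WT, with 9 false calls. Aplnr, Esm1 and Dll4 lay below that mean in WT, so these shares do not cover them. Positions are from GENCODE vM21 (GRCm38), and promoters from RefSeq. The 10 genes and all lists were chosen with earlier results of these data known. The text names the 10 genes, the partners that passed, the 3 genes of smallest p in each other list and the 5 nearest to Apln. Counts and sums over the rod markers are not reported here. Alternatives were DESeq2 1.42.0 size factors and test, filterByExpr, a replicate block, 1 fit to all libraries, other denominators and leaving out libraries. Leaving out 2 libraries together was chosen after seeing the data.

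Replicate numbers were checked over 14747 genes: deviations of same-numbered libraries correlated between -0.026 and 0.033. No pairing by number was seen, but a pairing that touches few genes could be missed.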

Additional observations from a re-analysis of the deposited data

How the results depend on the processing

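Apln kept its direction and its call in WT, in Casp1 KO and in the joint fit under every alternative run. The count of tip cell genes called in WT was 3, and 1 with the stricter low-count filter (filterByExpr), which did not keep Adm and under which Mcam was not called (adjusted p = 0.0834). Mcam was not called in WT with DESeq2 or with 1 fit to all 12 libraries either (adjusted p = 0.0524 and 0.0592). In Casp1 KO it was 2, and 1 with DESeq2, which gave Adm no adjusted p, with that filter and with 1 fit to all 12 libraries. Leaving out 1 library at a time gave counts of 2 to 4 in WT, 1 to 2 in Casp1 KO, 2 to 4 in the joint fit, 0 to 1 for the interaction and 0 to 1 for Casp1 KO against WT in OIR, and 0 to 0 in normoxia. With the replicate block the count in Casp1 KO was 1 rather than 2, since Adm was not called (adjusted p = 0.0631), and the counts of the other comparisons were the same. Of the ratios to the endothelial sum, 5 passed, 3 with Pecam1, Cdh5 and Cldn5 as the denominator, and 3 to 6 without 1 library.

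Directions turned only for genes that did not pass. Without 1 library, the log2 fold change of Dll4 ran from -0.80 to 1.51 in WT, from -1.04 to 0.51 in Casp1 KO and from -0.51 to 0.41 jointly, that of Pdgfb from -0.038 to 0.94 in WT and from -0.21 to 0.72 in Casp1 KO, that of Esm1 from -1.92 to 4.02 in Casp1 KO, that of Notch1 from -0.42 to 0.06 in WT, the Esm1 interaction from -5.69 to 1.13, and Apln in normoxia between labels from -0.19 to 0.66. The ratio of Dll4 ran from -0.73 to 0.35 and that of Pdgfb from -0.11 to 0.36, with -0.20 on the 3-gene denominator. Without both doubted libraries, Dll4 was 2.10 in WT and 0.57 jointly, and Notch1 0.094 in WT. The causes were not tested.

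The number of all genes called ran over the alternatives from 545 to 1130 in WT (886), 642 to 1050 in Casp1 KO (1038), 968 to 1217 jointly (1198), 139 to 597 for the interaction (277), 109 to 453 in normoxia (233) and 16 to 815 in OIR (131), the last 815 and the 597 without replicate 3 of WT OIR. In the joint fit the number of genes that rose ran from 0 to 3 for signalling partners, 4 to 6 for other tip cell genes, 1 to 3 for endothelial, 2 to 5 for mural, 0 to 3 for lens and 9 to 12 for hypoxia genes. No difference in Dll4 was detected, and with its few reads a difference could be missed. Esm1, Aplnr and Adm also had 0 reads in 1 or more libraries each.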
